A study of Mus musculus with 6 samples.

Results

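The extracellular proteases of the lung matrix and their inhibitors were taken as the genes named Mmp, Adamts, Adamtsl or Timp with a number, which gave 51 of the 55359 genes of the deposited table. They were 23 matrix metalloproteinases (MMPs), 19 ADAMTS proteases, 5 ADAMTS-like proteins and 4 tissue inhibitors of metalloproteinases (TIMPs). Poly(A) RNA was sequenced from lung tissue of 6 C57 mouse embryos at E18.5, shortly before birth. Of these embryos 3 carried the genotype label WT and 3 the label Prmt5 knockdown. Per the series text the Prmt5 knockout was specific to mesenchyme through Dermo1, another name of Twist2, while the growth protocol speaks of pregnant mice with a knockdown in lung mesenchymal cells. No Cre line, floxed allele or control genotype beyond WT is named in the labels. Litters are not named in the labels, so p-values reflect only how far these samples spread, which may be technical. Of the 51 genes 40 had enough counts to be tested.

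MMPs are zinc-dependent enzymes that are made as inactive precursors and cut collagens, gelatin, basement membrane proteins and cell surface proteins. ADAMTS proteases share the zinc-binding catalytic site and carry thrombospondin repeats. Some of them trim procollagens, some cut the proteoglycans versican and aggrecan, and others act on fibrillin microfibrils or on von Willebrand factor. ADAMTS-like proteins have the repeats without the protease domain and bind the matrix, among others fibrillin. TIMPs block the active site of MMPs and, in the case of Timp3, of several ADAM and ADAMTS proteases. In the late fetal lung the matrix is rebuilt while the walls between the future air spaces thin.

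Total counts assigned to genes were 14383415 to 19262837 per library. Prmt5, the targeted gene, was at 46.6, 47.1 and 48.1 CPM (counts scaled to the library total with TMM factors) in the wild type lungs against 39.4, 47.6 and 46.7 CPM in the others. The log2 fold change was -0.08 (edgeR quasi-likelihood adjusted p = 0.682), so the second group is called knockdown-labelled and every direction rests on the labels. The lung label was met by Sftpc, the surfactant gene of type 2 cells, at 7679 to 10212 FPKM. Summed levels of 12 heart muscle genes were 479 to 2771 CPM in wild type and 3181 to 12525 CPM in the knockdown-labelled libraries. Summed levels of 8 endothelial genes were 2514 to 2848 against 1716 to 2176 CPM. In RNA of a whole organ, fewer cells of a type and less RNA per cell cannot be told apart. Y-linked transcripts marked 1 embryo of the wild type group and 2 of the other as male.

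Mean levels of the genes ranged from no count at all to 78.2 FPKM (counts scaled to exonic length and library total), which allows comparison between genes. A group of 6 genes stood at the top. Mmp2, the gelatinase that cuts denatured collagen and type IV collagen, had a mean of 78.2 ± 6.10 FPKM (SD, n = 6). Adamts1, which cuts versican and aggrecan, had 73.7 FPKM and Timp3, the matrix-bound inhibitor, 71.2 FPKM. Timp2, the inhibitor that also takes part in the activation of Mmp2 at the cell surface, had 61.6 FPKM. Mmp14, the membrane-anchored collagenase that activates Mmp2, had 58.0 FPKM and Adamts10, which binds fibrillin microfibrils, 56.9 FPKM. Over the 6 libraries Mmp2 spanned 68.96 to 85.55 FPKM and Adamts10 51.58 to 64.23 FPKM, and neighbours in this order overlapped in their ranges. The next gene, Adamts17, lay clear of them at 19.7 to 32.1 FPKM.

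The 5 most abundant genes made up 59.0 ± 0.707% of the summed FPKM of all 51 genes in wild type against 56.7 ± 0.954% in the other group (SD, n = 3 each). Mmp2 and Mmp14 alone held 70.9 ± 0.857% and 69.4 ± 2.30% of the summed MMP level. By mean FPKM over the 6 libraries, 12 genes were at 10 or above, 18 between 1 and 10, 10 between 0.1 and 1, and 11 below 0.1. None of the last 11 was tested, and all 11 were MMPs. All 19 ADAMTS, all 5 ADAMTS-like and all 4 TIMP genes passed the count filter, against 12 of 23 MMPs.

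**Figure D1:**
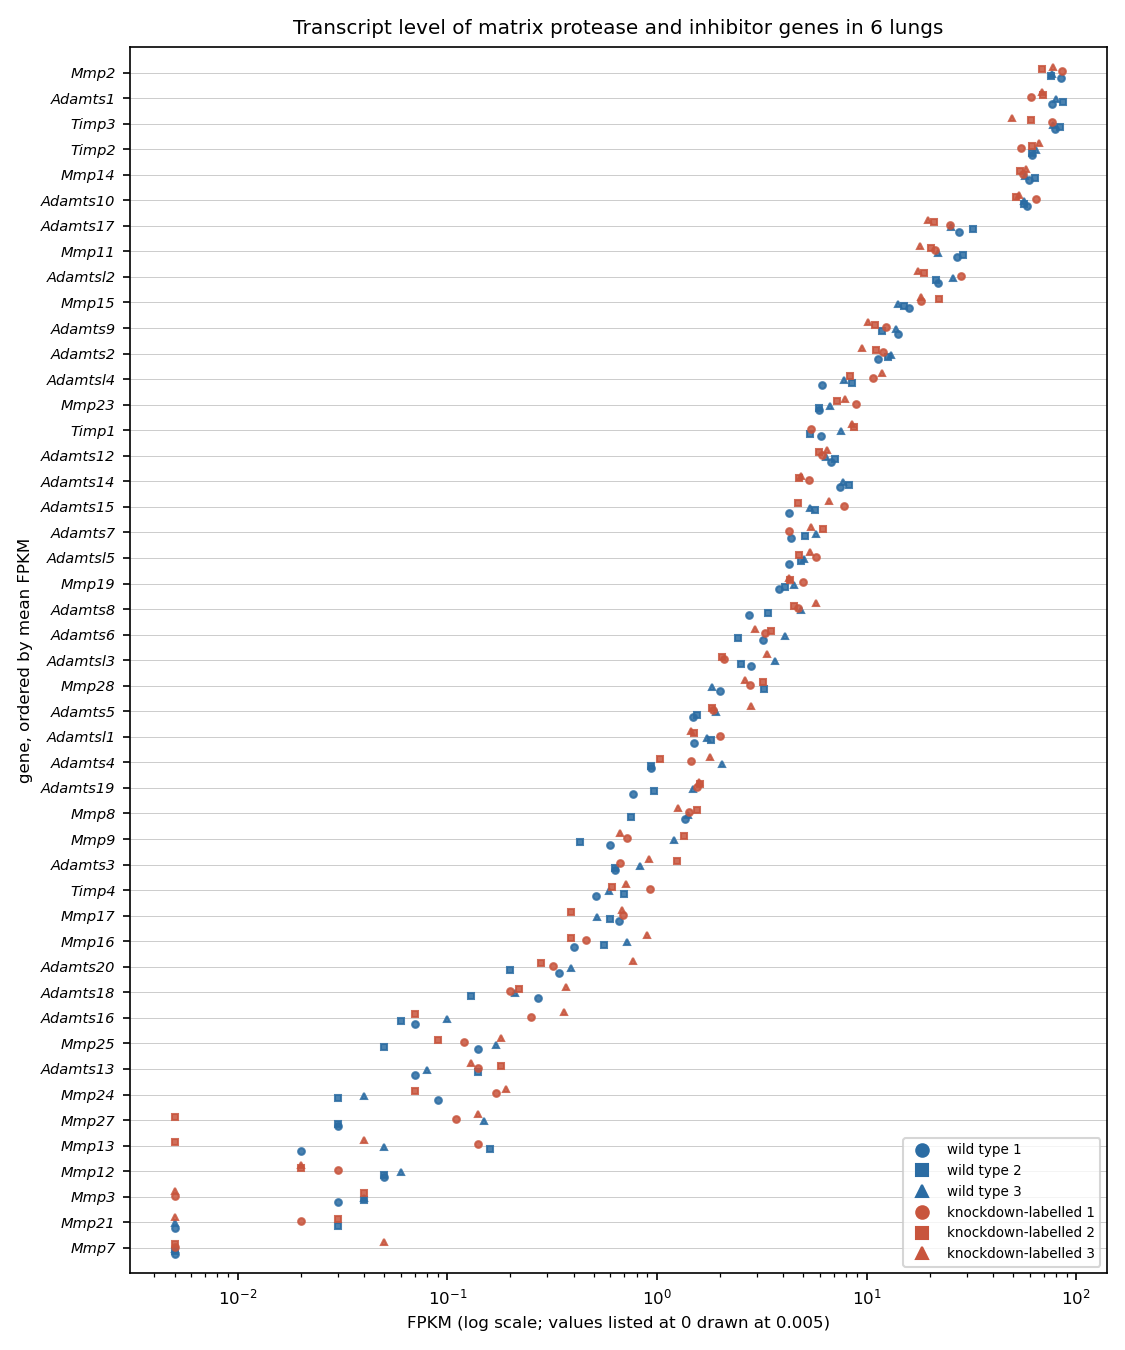
FPKM (log axis, values listed at 0 drawn at 0.005) of the 47 genes with at least 1 count, ordered by mean level, with 1 point per library (blue wild type, red knockdown-labelled, symbols for replicates). The 6 genes from Mmp2 to Adamts10 lie between 49.43 and 86.15 FPKM in every library, and 11 genes, 7 of them drawn, stay below a mean of 0.1 FPKM.

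The barely detected MMPs lay mostly in 1 gene cluster. On chromosome 9 the table lists 10 MMP genes side by side within 427 kb (7272514 to 7699586 in the table's coordinates, whose build is not given in the sources used here): Mmp13, Mmp12, Mmp1b, Mmp3, Mmp1a, Mmp10, Mmp8, Mmp27, Mmp20 and Mmp7. They encode collagenases, stromelysins, the macrophage elastase Mmp12, the enamel protease Mmp20 and matrilysin. Mmp1a, Mmp1b, Mmp10 and Mmp20 had 0 counts in all 6 libraries, where 3 counts correspond to 0.153 to 0.212 CPM. The other genes of the cluster apart from Mmp8 had 1 to 26 counts over the 6 libraries together, 65 in sum. Mmp8, the collagenase known from neutrophils, was the gene of the cluster that could be tested, with 302 counts. Its level was 3.33, 1.83 and 3.38 CPM in wild type and 3.45, 3.81 and 3.01 CPM in the knockdown-labelled lungs. The groups overlapped (log2 fold change 0.26, edgeR adjusted p = 0.698). Of the 13 MMP genes outside the cluster 11 were tested, and Mmp21 and Mmp24 were not.

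Promoter sequences of the same genes were read from RefSeq windows of the build GRCm38.p6, which held 36 of the 51 genes in 39 windows. They are shown because this cluster and the abundant genes with a window differ in the motifs they carry. Mmp2 and Adamts10, both among the most abundant genes, had no window. Each sequence gives the 250 bases before the start of transcription, 5′ to 3′ on the gene's strand. Capitals mark matches, on either strand, to 3 motifs. The AP-1 site was searched as TGANTCA. The TATA box was searched as TATAAA. The GC box, known as the binding site of Sp1, was searched as GGGCGG. The first 3 are barely detected genes of the cluster, the next 3 are abundant genes, and the last is the gene with the smallest p in the comparison below.
Mmp13 (chr9:7272264-7272513, plus strand): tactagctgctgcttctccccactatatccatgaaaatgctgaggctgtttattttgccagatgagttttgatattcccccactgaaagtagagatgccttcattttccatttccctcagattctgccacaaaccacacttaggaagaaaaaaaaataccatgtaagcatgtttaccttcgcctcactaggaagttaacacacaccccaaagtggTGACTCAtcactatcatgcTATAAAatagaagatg
Mmp3 (chr9:7445572-7445821, plus strand): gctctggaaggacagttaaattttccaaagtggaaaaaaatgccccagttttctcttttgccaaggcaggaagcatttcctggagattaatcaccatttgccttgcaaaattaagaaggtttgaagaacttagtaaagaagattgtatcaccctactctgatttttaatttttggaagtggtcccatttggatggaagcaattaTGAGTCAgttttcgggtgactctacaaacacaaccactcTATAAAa
Mmp1a (chr9:7463891-7464140, plus strand): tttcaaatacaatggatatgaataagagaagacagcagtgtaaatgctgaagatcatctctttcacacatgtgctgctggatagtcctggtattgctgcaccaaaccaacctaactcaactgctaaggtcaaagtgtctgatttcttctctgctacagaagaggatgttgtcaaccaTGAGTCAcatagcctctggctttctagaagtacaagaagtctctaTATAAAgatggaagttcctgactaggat
Mmp14 (chr14:54431348-54431597, plus strand): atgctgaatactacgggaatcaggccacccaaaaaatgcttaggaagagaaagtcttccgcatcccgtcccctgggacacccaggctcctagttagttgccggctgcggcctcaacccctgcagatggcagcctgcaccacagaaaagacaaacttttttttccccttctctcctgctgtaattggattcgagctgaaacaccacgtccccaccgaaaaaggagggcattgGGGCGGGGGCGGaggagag
Timp3 (chr10:86300162-86300411, plus strand): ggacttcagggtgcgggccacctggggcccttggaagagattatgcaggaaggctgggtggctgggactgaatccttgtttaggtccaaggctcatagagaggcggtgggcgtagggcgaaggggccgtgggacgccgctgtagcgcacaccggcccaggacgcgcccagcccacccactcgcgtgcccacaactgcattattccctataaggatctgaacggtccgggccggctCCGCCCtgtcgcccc
Adamts1 (chr16:85803114-85803363, minus strand): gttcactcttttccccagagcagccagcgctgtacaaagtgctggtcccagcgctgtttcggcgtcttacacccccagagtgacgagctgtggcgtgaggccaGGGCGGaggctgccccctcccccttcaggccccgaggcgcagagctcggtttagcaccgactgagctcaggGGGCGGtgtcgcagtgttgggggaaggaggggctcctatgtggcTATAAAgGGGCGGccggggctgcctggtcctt
Adamts14 (chr10:61273420-61273669, minus strand): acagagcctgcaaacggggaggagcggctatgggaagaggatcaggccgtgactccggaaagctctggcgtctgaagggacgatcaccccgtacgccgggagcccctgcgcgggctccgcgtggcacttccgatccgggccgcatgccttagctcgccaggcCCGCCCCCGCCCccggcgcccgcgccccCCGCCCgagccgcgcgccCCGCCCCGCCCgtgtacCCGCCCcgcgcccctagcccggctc

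In the promoters of Mmp13, Mmp3 and Mmp1a an AP-1 match starts 35, 46 and 73 bases before the start of transcription, with a TATA match downstream of it. The chromosome 9 cluster had 12 windows for 10 genes, with 2 each for Mmp12 and Mmp7. Of these 12 windows 8 (66.7%) held an AP-1 match and 7 (58.3%) a TATA match. Among the 32851 windows of all genes 6.75% and 12.4% did. None of the 12 held a GC box, which 32.7% of all windows do. The promoters of genes outside the cluster had another make-up, and not only those of the more abundant genes. Of the 10 windows of genes with a mean of at least 10 FPKM 9 (90%) held a GC box, and of the 10 windows of genes at 1 to 10 FPKM 6 (60%) did. AP-1 matches were met in 0 of these 20 windows, of which that of Mmp8 also belongs to the cluster. Of the 19 windows of genes under 1 FPKM 8 held an AP-1 match, all of them in the cluster. A GC box was held by 5 of the 19, none of them in the cluster. The median GC content was 40.2% in the cluster, 64.6% in the windows of the most abundant genes and 52.4% over all genes. Adamts14 had 6 GC box matches in 250 bases and a GC content of 76.4%. CCAAT was found in 20.5% of the windows of these genes and in 33.8% of all, and the E-box CATATG in 0 of 39 and 3.46%. Matches of different motifs overlapped in 2 of the 39 windows, and letters alone do not show a bound site.

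**Figure D2:**
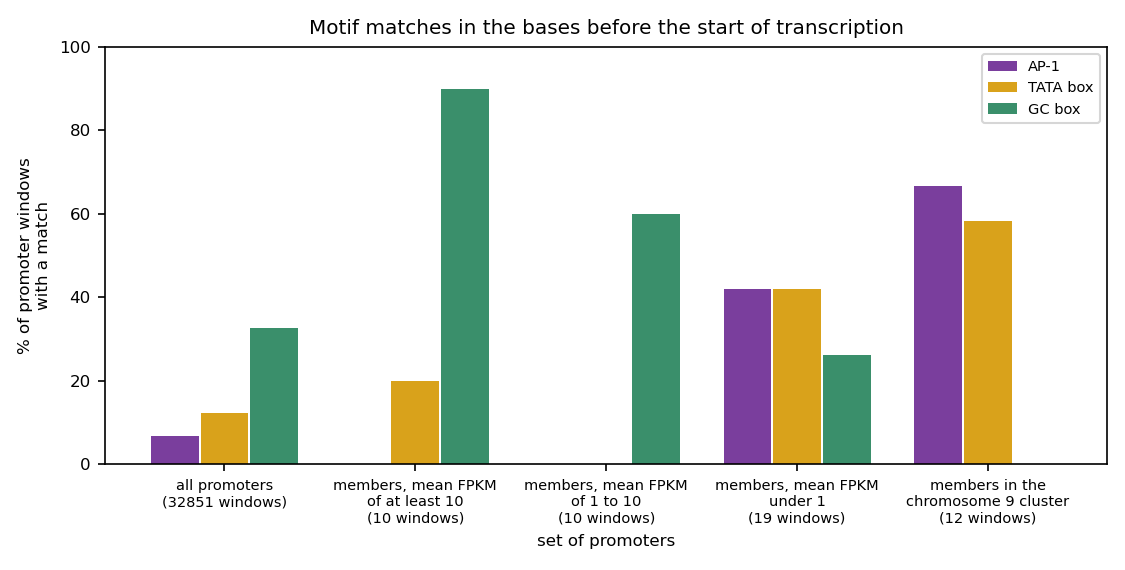
Share of promoter windows (%) with an AP-1, TATA or GC box match in the 250 bases before the start of transcription, for all RefSeq windows and for windows of matrix protease and inhibitor genes by level. AP-1 reaches 66.7% in the chromosome 9 cluster and 0 in genes above 1 FPKM, while the GC box reaches 90% in genes of at least 10 FPKM. The AP-1 matches under 1 FPKM all lie in the cluster, and the GC boxes there all lie outside it.

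The question put to the 2 groups was which transcripts of matrix proteolysis differ between lungs with the 2 genotype labels. After adjustment over all genes 0 of the 40 tested genes were called by edgeR (threshold 0.05), against 6 of 17728 genes (0.0338%) in the whole table, 0.00564% higher and 0.0282% lower. DESeq2 called 2 of the 37 to which it gave an adjusted p (5.41%), Adamts14 and Adamts1, both lower. Over the table it called 854 of 15975 genes (5.35%), 3.02% lower, so the share of these genes was near that of all. Without a filter on low counts edgeR called 1 of 47, Adamts14, against 0.249% of all genes. At an unadjusted p under 0.05 edgeR had 11 of the 40 (27.5%), 5 higher and 6 lower. Over all genes tested the same threshold was met by 17%, with 8.48% higher and 8.52% lower. The groups did not overlap for 8 of the 40 (20%), 3 higher (7.5%) and 5 lower (12.5%), against 23.2% of all genes, 10.8% higher and 12.4% lower. The share without overlap was close to that of the whole table, and the share at an unadjusted p under 0.05 was above it. By family, 2 MMPs were higher and 1 lower at that threshold, 2 ADAMTS genes higher and 4 lower, 1 ADAMTS-like gene higher and 1 TIMP lower. The median log2 fold change was 0.10 over the 40 and 0.015 over all genes tested. Above 0 lay 23 of the 40 (57.5%), near the 52.9% of all genes tested. Of the 10 tested genes with a mean under 1 FPKM all but Mmp17 lay above 0. The share of all genes at such levels was not determined, so this is not read as a trait of these genes.

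**Figure D3:**
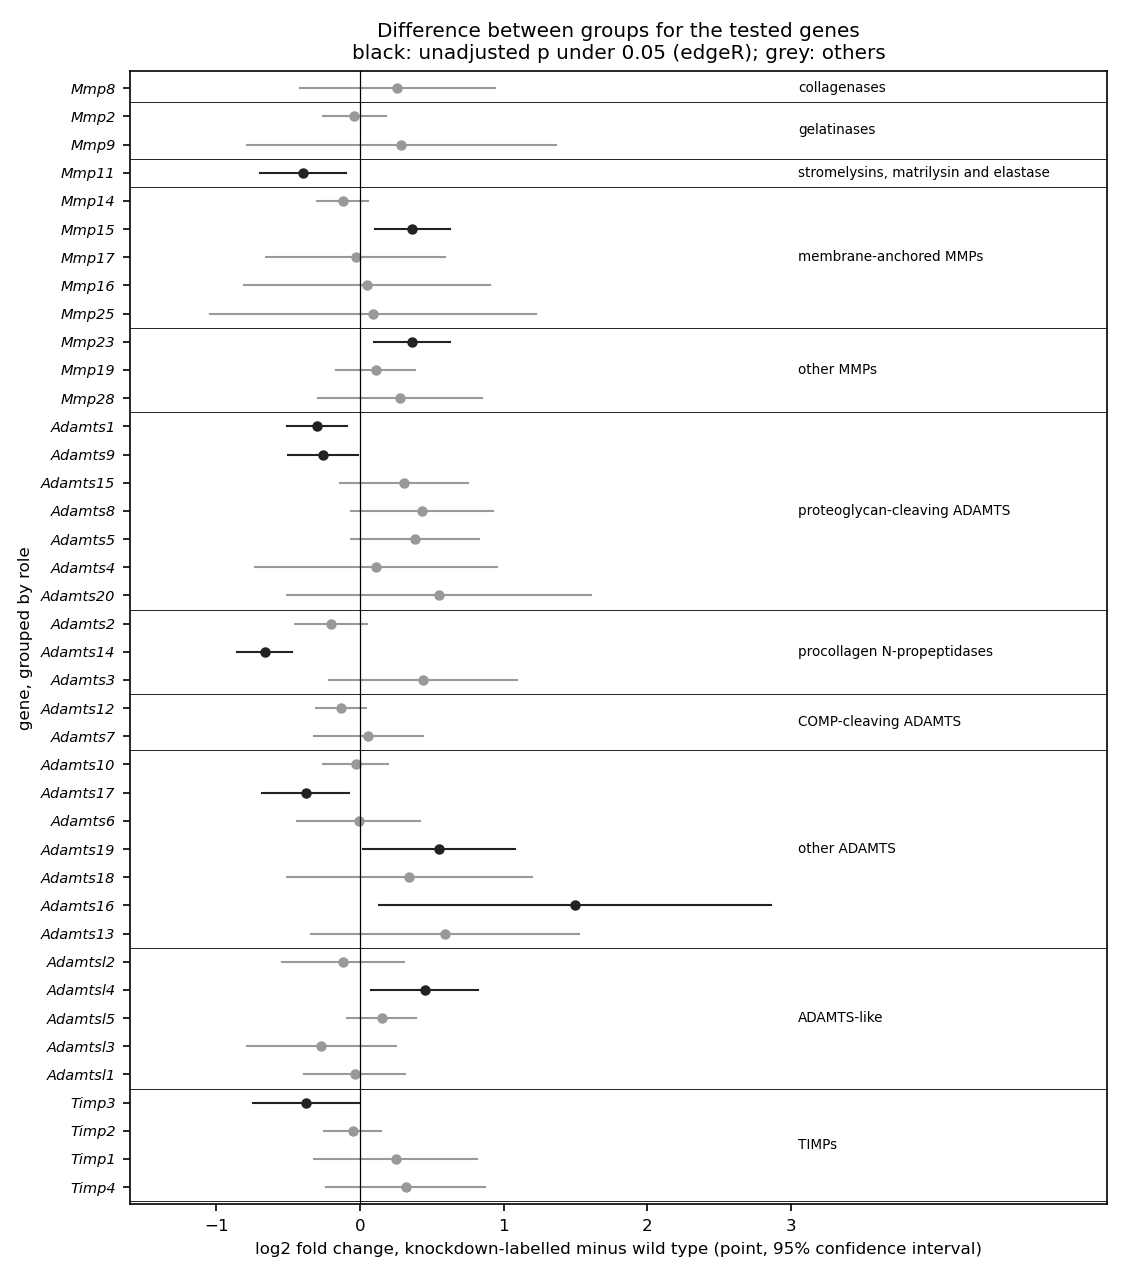
Log2 fold change (knockdown-labelled minus wild type) of the 40 tested genes, grouped by role, with 95% confidence intervals. The 11 genes in black had an unadjusted p under 0.05 and 0 passed after adjustment; Adamts14, at -0.66, has an interval of -0.85 to -0.47.

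Among the procollagen N-propeptidases, which trim the amino ends of fibrillar procollagens, Adamts14 had the smallest p of all 40 genes. Adamts14 (ENSMUSG00000059901, chromosome 10, 61032891 to 61109217 in the table, minus strand) was at 39.1, 43.6 and 39.8 CPM in the wild type lungs against 27.5, 25.03 and 24.9 CPM in the knockdown-labelled ones. Every knockdown-labelled value lay well below every wild type value. The means were 40.8 ± 2.44 and 25.8 ± 1.48 CPM (SD, n = 3 each). On the log2 scale the difference was -0.66 (SE 0.08), and edgeR's adjusted p of 0.0775 missed the threshold. The adjusted p was 7.96e-06 in DESeq2 and 0.0255 in edgeR without a filter on low counts. Leaving out any 1 library gave log2 fold changes between -0.70 and -0.61, with edgeR adjusted p-values of 0.0697 to 0.416. With the mean level of the heart muscle genes as a covariate, which itself did not overlap between the groups, the log2 fold change was -0.62. Adamts2, the main propeptidase of type I procollagen, was more abundant at 116 ± 7.92 against 101 ± 12.5 CPM, and its groups overlapped (log2 fold change -0.20, edgeR adjusted p = 0.388). Adamts3, the third of this kind, was at 3.79 ± 0.590 against 5.15 ± 1.65 CPM (edgeR adjusted p = 0.474).

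Of the 7 proteoglycan-cleaving ADAMTS genes 2 had lower and 5 higher means in the knockdown-labelled lungs, and the 2 lower were the most abundant. Adamts1 (chromosome 16, 85590715 to 85600001) was at 411, 462 and 420 CPM in the wild type lungs against 320, 372 and 359 CPM in the knockdown-labelled ones. The groups did not overlap. Its log2 fold change of -0.30 had a 95% interval of -0.51 to -0.09 (edgeR adjusted p = 0.191, DESeq2 adjusted p = 0.0319). Adamts9, which cuts versican and is known from endothelium and mesenchyme, was at 214, 180 and 207 against 185, 167 and 151 CPM. Wild type replicate 2 lay below knockdown-labelled replicate 1, so the groups overlapped, with a log2 fold change of -0.26 (edgeR adjusted p = 0.278). The other 5 were less abundant and none had an unadjusted p under 0.05. Adamts15 was at 53.04 ± 7.87 against 65.5 ± 15.4 CPM and Adamts8 at 16.95 ± 4.91 against 22.9 ± 2.66 CPM. Adamts5, the aggrecanase of cartilage, was at 17.9 ± 2.34 against 23.3 ± 5.79 CPM. Adamts4 and Adamts20 were below 10 CPM in every library.

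Neighbouring genes of this group did not share a direction in every case. Adamts1 and Adamts5 lie 53.1 kb apart on chromosome 16 with the same strand, and their log2 fold changes were -0.30 and 0.38. The FPKM ratio of Adamts5 to Adamts1 was 0.019, 0.018 and 0.024 in the wild type lungs. In the knockdown-labelled ones it was 0.030, 0.026 and 0.041, without overlap. Adamts5 by itself overlapped between the groups (edgeR adjusted p = 0.362) and Adamts1 did not, so the ratio is no separate support. Adamts15 and Adamts8 lie 20.1 kb apart on chromosome 9 on opposite strands, and both had higher means (log2 fold changes 0.31 and 0.43). Adamts5 and Adamts8 were highest in knockdown-labelled replicate 3 and Adamts15 in replicate 1. Replicate 3 also had the highest summed level of cartilage genes, 85.2 CPM against 19.1 to 35.1 CPM in the others, and the part of such cells in these values was not tested.

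The other ADAMTS genes held both the abundant microfibril-related proteases and several genes near the limit of detection. Adamts10 was at 474 ± 12.01 against 464 ± 52.9 CPM, with a log2 fold change of -0.03 and a 95% interval of -0.26 to 0.20. Adamts17, a relative that like Adamts10 is tied to connective tissue and eye disease, was at 215, 252 and 194 CPM in the wild type lungs against 193, 166 and 150.4 CPM in the knockdown-labelled ones. The groups touched without overlapping, since wild type replicate 3 and knockdown-labelled replicate 1 were 193.9 and 192.7 CPM. The log2 fold change was -0.38 (edgeR adjusted p = 0.226). Adamts19, the closest relative of Adamts17, differed the other way, at 10.9, 13.8 and 20.8 CPM against 21.7, 22.9 and 21.95 CPM. Its log2 fold change of 0.55 (edgeR adjusted p = 0.280) was 0.05 with the heart muscle level as a covariate. That level did not overlap between the groups, so the fit cannot tell it from the group. Wild type replicate 3, the wild type library with the most heart muscle RNA, was also the highest of its group for Adamts19. The knockdown-labelled libraries were close together for Adamts19, with summed heart muscle levels of 3181 to 12525 CPM. The part of heart muscle in the Adamts19 values was not tested.

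Adamts16 had the highest fold change of the 40 genes and one of the lowest levels. It was counted 8, 6 and 11 times in wild type and 27, 7 and 47 times in the knockdown-labelled libraries. Replicate 2 of the knockdown-labelled group lay within the wild type range, so the log2 fold change of 1.499 (95% interval 0.14 to 2.86, edgeR adjusted p = 0.265) rests on replicates 1 and 3. Without replicate 3 it was 1.00. Both libraries are from male embryos, and so is wild type replicate 1, which had 8 counts. With embryo sex as a covariate the log2 fold change was 1.01 with an unadjusted edgeR p of 0.153. Skeletal muscle genes were also high in some of these libraries. The summed level of 9 of them was 310, 91.1 and 1770.02 CPM in the wild type lungs against 909, 514 and 4116 CPM in the knockdown-labelled ones. All 9 had log2 fold changes above 0 (median 1.19) and 0 had an unadjusted p under 0.05. Myog, a regulator of muscle differentiation, was at 5.85, 1.97 and 8.88 against 9.29, 0.423 and 18.7 CPM, and Myf5 and Pax7 had 0 counts in knockdown-labelled replicate 2. Myog and Adamts16 were both highest in knockdown-labelled replicates 3 and 1, and the list as a whole had another order. Its summed level was higher in wild type replicate 3 than in knockdown-labelled replicate 1. Single genes of the list went both ways there, Acta1 with 465 against 175 CPM and Myh3 with 142 against 245 CPM. Adamts16 was counted 11 times in wild type replicate 3 and 27 times in knockdown-labelled replicate 1. The part of skeletal muscle in the Adamts16 values was not tested. Adamts6, Adamts18 and Adamts13, the protease of von Willebrand factor, overlapped between groups. The pair that cuts cartilage oligomeric matrix protein, Adamts12 (73.8 ± 4.42 against 67.3 ± 2.06 CPM) and Adamts7 (31.8 ± 4.13 against 33.2 ± 6.42 CPM), did not differ beyond the spread of the libraries. Adamts7 overlaps Tbc1d2b, which has 10503 counts, on the opposite strand, and the strand setting of the counts is not given in the sources used here.

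Among the MMPs the most abundant genes showed small differences. Mmp2 was at 286, 257 and 258 CPM in the wild type lungs against 286, 236 and 258 CPM in the knockdown-labelled ones. Its log2 fold change was -0.04, with a 95% interval of -0.26 to 0.18. Mmp14 was at 358, 385 and 337 against 331, 325 and 338 CPM (log2 fold change -0.12, interval -0.30 to 0.06). Mmp14 lies 61.8 kb from Prmt5 on chromosome 14, and neither gene passed the test. Mmp9, the second gelatinase and known from neutrophils and macrophages, had 22 to 69 counts per library, with its highest level of 4.86 CPM in knockdown-labelled replicate 2. That library had the most heart muscle RNA, and with the heart muscle level as a covariate the log2 fold change turned from 0.29 to -0.90 (unadjusted p = 0.0735).

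Less abundant MMPs held 3 of the 11 genes with an unadjusted p under 0.05. Mmp11, stromelysin 3, which is activated inside the cell by furin-like enzymes, was at 75.3, 81.2 and 60.5 CPM in the wild type lungs against 58.5, 57.2 and 49.3 CPM in the knockdown-labelled ones. Wild type replicate 3 was close to the other group. The log2 fold change was -0.40 (edgeR adjusted p = 0.210), and -0.23 with the heart muscle level as a covariate. Mmp11 overlaps Chchd10, a gene with 4554 counts, on the opposite strand, so its value is uncertain. Mmp15, a second membrane-anchored enzyme, was at 86.4, 82.3 and 75.5 against 96.9, 121 and 96.3 CPM, with knockdown-labelled replicate 2 apart from the rest (log2 fold change 0.36, edgeR adjusted p = 0.198). Mmp23, an MMP held in the membrane by its amino end, was at 13.978, 14.001 and 15.6 against 20.6, 17.1 and 18.2 CPM (log2 fold change 0.36, edgeR adjusted p = 0.205). Neither gene's groups overlapped. Mmp19, Mmp28, Mmp16, Mmp17 and Mmp25 overlapped between groups, with log2 fold changes of -0.03 to 0.28. Of these, Mmp19 overlaps Tmem198b (1927 counts) on the opposite strand.

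ADAMTS-like genes included 1 with an unadjusted p under 0.05. Adamtsl4, which binds fibrillin-1 microfibrils, was at 26.05, 36.1 and 32.4 CPM in the wild type lungs against 44.7, 35.5 and 48.9 CPM in the knockdown-labelled ones. Knockdown-labelled replicate 2 lay within the wild type range (log2 fold change 0.45, edgeR adjusted p = 0.232). Adamtsl2, the most abundant of the 5 and a regulator of microfibrils linked to TGF-beta, was at 177, 174 and 205 against 223, 152 and 139 CPM. Its knockdown-labelled libraries lay on both sides of the wild type ones (log2 fold change -0.12, interval -0.54 to 0.31). Adamtsl1, Adamtsl3 and Adamtsl5 had log2 fold changes of -0.04, -0.27 and 0.15, none with an unadjusted p under 0.05.

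Of the inhibitors, Timp3 was lower in the knockdown-labelled lungs without passing the test and Timp2 was close to level. Timp3 (chromosome 10, 86136236 to 86185370) was at 651, 689 and 625 CPM in the wild type lungs against 616, 505 and 396 CPM in the knockdown-labelled ones. Knockdown-labelled replicate 1 was close to the lowest wild type value, while replicate 3 was far below. The log2 fold change was -0.37 with a 95% interval of -0.74 to -0.004 (edgeR adjusted p = 0.291), and -0.22 without replicate 3. Timp2 was at 241, 244 and 248 against 212, 242 and 254 CPM (log2 fold change -0.05, interval -0.25 to 0.15). Timp1, an inhibitor induced in injury, was at 5.64 ± 0.913 against 6.70 ± 1.66 CPM, with a mean of 6.95 FPKM over the 6 libraries. It overlaps Syn1 on the opposite strand, which had 174 counts. Timp4 was at 3.54 ± 0.572 against 4.41 ± 0.905 CPM. It overlaps Syn2 on the opposite strand, which had 408 counts against its own 383.

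The balance of the families was described by summed FPKM, with no test since it is a score over these genes. The sum over the 23 MMPs was 196 ± 7.65 FPKM in wild type and 192 ± 8.98 FPKM in the knockdown-labelled lungs. That over the 4 TIMPs was 149 ± 2.08 against 131 ± 6.32 FPKM, and that over the 19 ADAMTS genes 229 ± 7.08 against 205 ± 6.76 FPKM (SD, n = 3 each). The ratio of MMP to TIMP sums was 1.37, 1.31 and 1.25 in the wild type lungs against 1.47, 1.39 and 1.53 in the knockdown-labelled ones. All 3 knockdown-labelled ratios lay above the wild type ones. Without Timp3 the ratios were 2.97, 2.93 and 2.60 against 3.29, 2.60 and 2.53, and the groups overlapped. Timp3 made up 53.6 ± 1.77% of the TIMP sum in wild type and 47.1 ± 7.98% in the knockdown-labelled lungs.

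**Figure D4:**
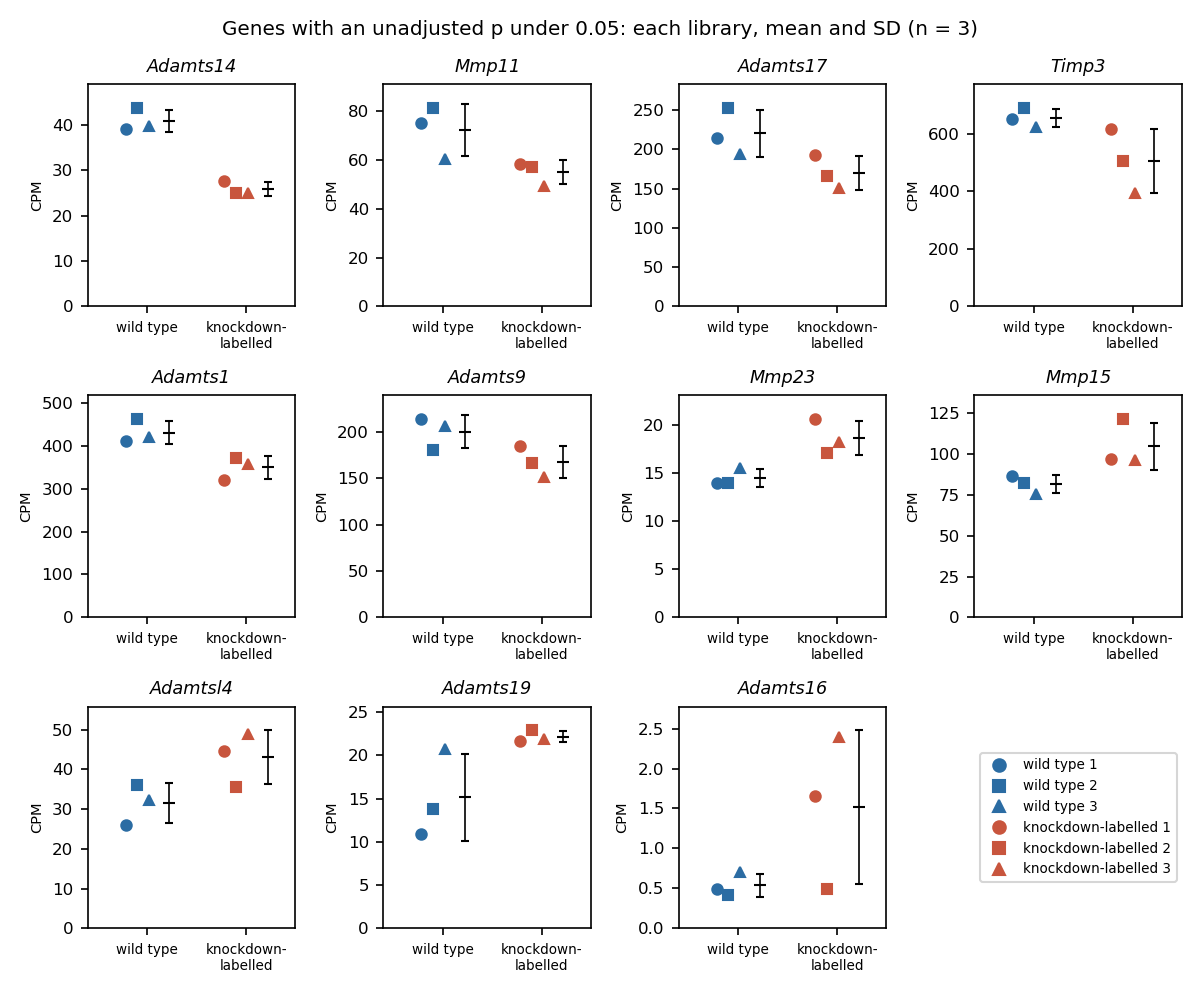
CPM of the 11 genes with an unadjusted p under 0.05 in each library (symbols), with the mean and SD of each group (n = 3) beside the points and axes from 0. Adamts14 separates the groups with a wide gap (39.1 to 43.6 against 24.9 to 27.5 CPM), while Adamts9, Adamtsl4 and Adamts16 overlap.

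Other genes of matrix proteolysis were read from 5 lists with 71 tested genes, of which 0 passed edgeR's adjusted threshold and 28 (39.4%) had an unadjusted p under 0.05, 11 higher (15.5%) and 17 lower (23.9%). Over all genes tested that share was 17%, with 8.48% higher and 8.52% lower. The 5 lists were chosen with earlier results of these data known. Their shares, here and below, are thus a description and no test of an excess over all genes. Their median log2 fold change was 0.07 against 0.015 over all genes. Of 14 other inhibitors and modulators 5 lay lower (35.7%) and 2 higher (14.3%) by the same p. Reck, a membrane-bound inhibitor of Mmp2, Mmp9 and Mmp14, was at 97.9 ± 2.47 against 73.8 ± 8.67 CPM (log2 fold change -0.41, edgeR adjusted p = 0.145). A2m, the broad protease trap alpha-2-macroglobulin, was at 49.5 ± 10.3 against 26.8 ± 4.79 CPM, Pcolce2, an enhancer of procollagen C-proteinase, at 31.3 ± 1.89 against 17.1 ± 3.99 CPM, and Spock2, a matrix proteoglycan, at 242 ± 26.03 against 182 ± 15.9 CPM. The groups did not overlap for any of these 4, and they did not overlap for 50% of this list against 23.2% of all genes.

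By the same p, 5 of 18 other metalloproteinases were lower (27.8%, against 8.52% of all genes) and 2 higher (11.1%, against 8.48%). The sheddase gene Adam10 was at 243 ± 5.99 against 191 ± 20.3 CPM and Phex, a surface endopeptidase, at 40.5 ± 2.27 against 22.5 ± 5.23 CPM. Adam22 (14.01 ± 0.116 against 19.02 ± 2.10 CPM) and Adam33 (12.9 ± 4.05 against 22.5 ± 4.05 CPM) were the 2 higher ones. Of 11 activators 2 were lower (18.2%) and 0 higher. Pcsk5, a proprotein convertase, was at 67.99 ± 4.69 against 49.1 ± 4.35 CPM and the other, Plaur, the urokinase receptor, at 31.4 ± 3.11 against 24.6 ± 1.39 CPM. The next by p there, Pcsk7 and St14, overlapped between groups.

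Of 17 substrate genes 4 were lower (23.5%, against 8.52% of all genes) and 5 higher (29.4%, against 8.48%) by that p. Nid1, a basement membrane linker, was at 613 ± 7.32 against 480.3 ± 27.1 CPM, Hapln1, which ties hyaluronan to versican, at 64.4 ± 9.17 against 36.5 ± 7.98 CPM, and Tnc at 208 ± 0.816 against 174 ± 7.73 CPM. Ncan went the other way at low level, from 0.323 ± 0.164 to 1.71 ± 0.830 CPM. Versican itself, Vcan, was at 94.2 ± 15.4 against 115.9 ± 32.1 CPM (log2 fold change 0.30, unadjusted p = 0.191). Of 11 cysteine and serine proteases 2 were higher (18.2%) and 1 lower (9.09%). Ctss, a macrophage cathepsin, was at 27.1 ± 3.51 against 36.8 ± 5.45 CPM, Htra3 at 32.3 ± 1.36 against 47.7 ± 12.6 CPM, Htra1 at 61.2 ± 7.44 against 48.6 ± 6.93 CPM and Ctsd at 242 ± 3.48 against 266 ± 4.68 CPM. None of these genes passed after adjustment.

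Marker lists of other cell types moved with the groups beside these values. All 12 heart muscle genes were higher in the knockdown-labelled group (median log2 fold change 2.43, 10 with an unadjusted p under 0.05) and all 8 endothelial genes lower (median -0.45, 7 with an unadjusted p under 0.05). With the heart muscle level as a covariate 2 of the 40 genes, Adamts14 and Adamts16, had an unadjusted p under 0.05, which is 5% against 7.73% of all genes (1370 of 17728). Macrophage and neutrophil lists, the known sources of Mmp12, Mmp9 and Mmp8, had summed levels of 141 to 145 and 26.3 to 55.6 CPM in wild type and of 139.7 to 177 and 42.6 to 65.6 CPM in the knockdown-labelled lungs. Fibroblast genes summed to 4781 to 5777 against 5156 to 6859 CPM, with 2 of 8 genes higher and 2 lower by unadjusted p. The covariate, the mean log2 CPM of the heart muscle genes, was 3.47, 4.20 and 6.51 in the wild type libraries. In the knockdown-labelled ones it was 7.02, 9.37 and 6.94. These ranges do not overlap, so the covariate fit cannot tell the heart muscle level from the group. The part of these cell types in the differences above was not tested.

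**Figure D5:**
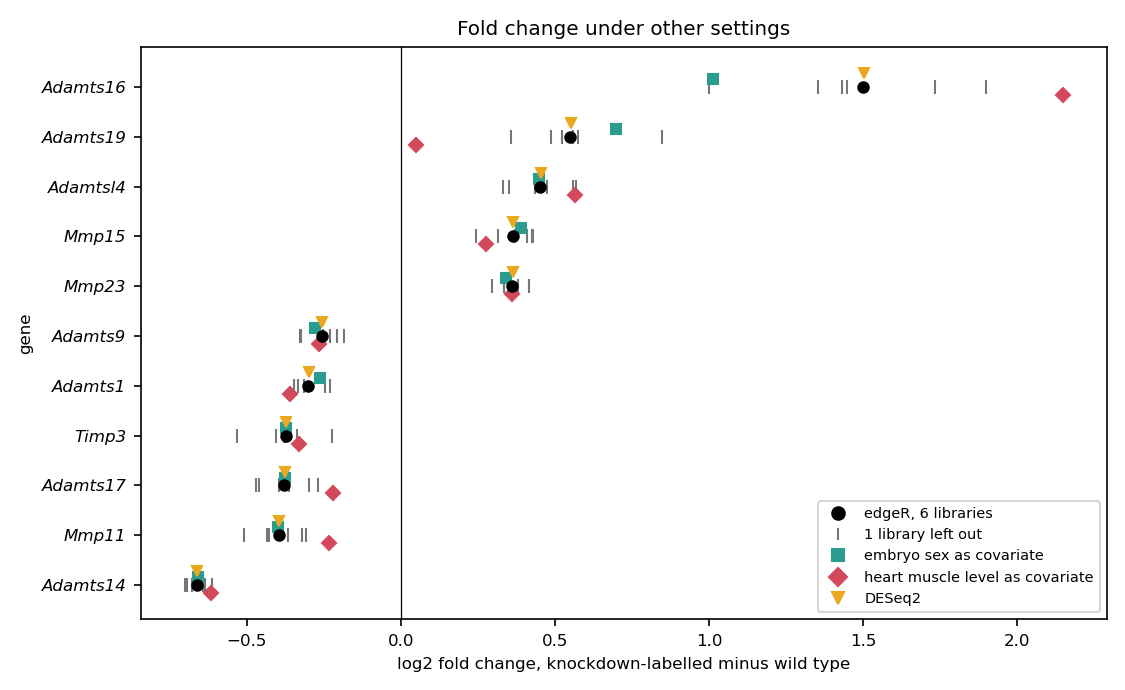
Log2 fold change of the 11 genes with an unadjusted p under 0.05 in edgeR with 6 libraries (black), with 1 library left out (grey ticks), with embryo sex or heart muscle level as a covariate, and in DESeq2. All 11 keep their sign in the settings drawn; Adamts14 stays between -0.70 and -0.61, while Adamts19 drops to 0.05 with heart muscle level as a covariate.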

How the data were processed

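Poly(A) RNA-seq counts of 6 libraries, 3 per group, were analysed. The deposited table holds raw counts and FPKM per gene, per the file headers. Named in the submitters' processing notes, with no roles, are HISAT2 2.0.1, HTSeq 0.6.1 and cutadapt 1.9.1. For build and strand the entry is: not given in the sources used here. Deposited FPKM matched values recomputed from count, total and exonic length within 0.005.

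The counts were tested over all genes with edgeR 4.0.16 in R 4.3.3 (filterByExpr, TMM, quasi-likelihood test, group as the only term), two-sided, with Benjamini-Hochberg adjustment and a threshold of 0.05. Standard errors come from the size of the log2 fold change and F. The fits were tested on simulated data. Exact permutation of 3 against 3 cannot go below 0.1, so it was not used. Intervals and floors of 3 counts cover sampling error only.

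Genes and lists were chosen with earlier results of these data known. Values per library are given for genes with an unadjusted p under 0.05 and the most abundant gene of each role. Adamts2, Adamts10 and Adamts12, the most abundant of their roles, are given by mean and SD. Of each further list the 4 genes with the smallest p are named, by mean and SD except for Pcsk7 and St14. Vcan, Myog, Myf5, Pax7, Acta1 and Myh3 were named after their values were seen. Alternatives were other scalings, filters, robust edgeR, DESeq2 1.42.0, limma 3.58.1 on log2(FPKM + 1) and log2(FPKM + 0.1), embryo sex or heart muscle level as a covariate, and leaving out each library.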

Additional observations from a re-analysis of the deposited data

How the results depend on the processing

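Adamts14 and the other 10 genes with an unadjusted p under 0.05 kept their sign in every setting that tested them, and no setting other than DESeq2 and edgeR without a filter called any of the 40. DESeq2 called 2 of these genes and 854 of all genes, and edgeR without a filter called 1 and 81. Over all genes 0 passed with embryo sex as a covariate (2524 at an unadjusted p under 0.05), 1 with the heart muscle level, 3 with limma on log2(FPKM + 0.1) and 15 with robust edgeR, against 6. With a library left out 0 to 17 passed (1663 to 3287 at an unadjusted p under 0.05): 17 without replicate 3 of the wild type, 1 without replicate 3 of the knockdown-labelled group and 0 without any of the other 4.

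The 11 genes with an unadjusted p under 0.05 were 7 with embryo sex as a covariate (3 higher) and 2 with the heart muscle level (1 higher and 1 lower). Both limma fits, which tested 30 of the genes, had 3 higher, and medians of 0.00042 (pseudocount 0.1) and -0.0013 (pseudocount 1). They left out the 10 tested genes with a mean under 1 FPKM. The median of 0.10 over the 40 is thus not over the same genes. With a library left out the 11 became 5 to 10 (2 to 6 higher, 3 to 7 lower), namely 5 without replicate 1 of the wild type, 5 without replicate 3 of the knockdown-labelled group and 7 without replicate 2 of the wild type. The cause of these shifts in the number of genes was not tested. Leaving out a library moved the median of the 40 to 0.026 to 0.19.

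Signs turned only for genes with an unadjusted p above 0.05. With the heart muscle level as a covariate the log2 fold change was -0.0096 for Mmp8, 0.13 for Mmp2, -0.90 for Mmp9, 0.54 for Mmp17, -0.22 for Adamts4, -0.19 for Adamts3, -0.34 for Adamts7, 0.084 for Adamts10 and -0.15 for Timp1. With embryo sex it was -0.083 for Mmp25 and 0.024 for Adamts6. Adamts6, at -0.0082, was 0.027 and 0.016 in the limma fits and 0.0085 with a mean CPM of at least 1. With a library left out the ranges that crossed 0 were -0.10 to 0.024 for Mmp2, -0.12 to 0.80 for Mmp9, -0.15 to 0.18 for Mmp17, -0.40 to 0.26 for Mmp16, -0.25 to 0.40 for Mmp25, -0.081 to 0.58 for Adamts4, -0.055 to 0.79 for Adamts20, -0.084 to 0.20 for Adamts7, -0.12 to 0.017 for Adamts10, -0.17 to 0.18 for Adamts6, -0.34 to 0.016 for Adamtsl2, -0.18 to 0.059 for Adamtsl1 and -0.10 to 0.033 for Timp2. No paired analysis was possible because the labels name no litters or pairs. The replicate numbers used here follow the order of the samples, and equal numbers in the 2 groups do not mark pairs.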
